A study of Mus musculus with 48 samples.

Results

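The comparison described here is between mouse cortex with and without RTI on the mG-cKO background at postnatal day 21 (P21). It covers every gene with a mean of at least 0.5 FPKM (fragments per kilobase of exon, scaled to the size of the library, the deposited unit) over 3 mG-cKO RTI libraries and 3 mG-cKO libraries without RTI. That rule took 16613 of the 55401 genes of the P21 table. The mean of Mob3b, 0.50009 FPKM, lay just inside the limit, and that of 6330549D23Rik, 0.49993 FPKM, just outside it. The libraries are bulk RNA-seq of whole cortex, so fewer cells of a type and less RNA per cell cannot be told apart.

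The labels give tissue, genotype, age and the RTI tag, and the P21 table holds 15 libraries in 5 groups of 3. Ctrl libraries are titled WT and had no RTI. The mG-cKD libraries, titled Het, and the mG-cKO libraries, titled MT, each come without and with RTI. All are cortex at P21. The gene deleted, the Cre driver, the strain and sex of the mice, and the dose and schedule of RTI are not given in the sources used here, so the loss of the deleted gene was not checked. RTI is commonly short for reverse transcriptase inhibitor, and the series title speaks of RNA-DNA hybrids derived from endogenous retroviruses, but the labels do not spell the letters out. They do not say whether the untreated mice received a vehicle, or that each library came from a separate mouse. The p-values below therefore measure the spread between libraries.

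Reverse transcriptase inhibitors block the enzyme that copies RNA into DNA, which retroviruses and endogenous retroelements use to form RNA-DNA hybrids and cDNA. Nucleic acids of this kind can engage innate sensors and interferon signalling, and in cortex C4b, a complement component, belongs to the tagging of synapses for removal by microglia. A different stress pathway recurs in the genes below. In the integrated stress response, kinases that sense unfolded protein, amino acid shortage or mitochondrial stress slow translation while the transcription factor Atf4 is made, and Atf4 switches on genes of amino acid uptake, tRNA charging, serine and proline synthesis and secreted stress signals. Oligodendrocytes make myelin in the weeks after birth, and their transcripts dominate many genotype differences in young cortex.

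Cortical markers were high in all 6 libraries, with Slc17a7, the vesicular glutamate transporter of cortical projection neurons, at 640 to 809 FPKM. Several libraries stood apart. mG-cKO RTI 1 held more myelin transcript than its group (Mobp at 107 FPKM against 38.1 and 25.7). mG-cKO RTI 2 and 3 held Xist at 27.1 and 36.4 FPKM and Ddx3y at 0. In mG-cKO RTI 1 and the 3 untreated libraries Xist did not exceed 0.038 FPKM and Ddx3y was at 4.903 to 7.225 FPKM. By these sex-linked transcripts mG-cKO RTI 2 and 3 read as female and the others as male. Sex was thus unbalanced between the groups compared, and its part cannot be fully told apart from RTI. mG-cKO 2 stood apart in 2 abundant transcripts, with the small nuclear RNA Rn7sk at 152.112 FPKM against 2.288 to 22.296 FPKM in the other 5 libraries and the alpha globin Hba-a1 at 129.159 FPKM against 7.692 and 23.267 FPKM in its group. Choroid plexus transcript was also uneven, Ttr reaching 508 and 257 FPKM in mG-cKO RTI 2 and 3 against 2.98 to 77.3 without RTI. Outside the comparison, the library labelled mG-cKD RTI 1 went against its label. Its Prm1, a protamine, was 0 where the other 5 mG-cKD libraries held 3.13 to 7.26 FPKM, and its C4b was 6.75 FPKM against 1.66 to 2.33 in them. After the group means were removed, same-numbered libraries of mG-cKO correlated over all genes at 0.15, 0.12 and 0.70 with Ctrl and at 0.52, 0.33 and 0.69 with mG-cKD, but at -0.04, -0.32 and -0.18 with mG-cKO RTI, and those of the RTI groups at 0.01, -0.03 and 0.13 with each other. Same-numbered libraries of Ctrl and mG-cKD correlated at 0.13, -0.14 and 0.62. Between different numbers the correlations of mG-cKO reached 0.36 with Ctrl, 0.16 with mG-cKD and 0.29 with mG-cKO RTI. The labels name no batch, so a difference between the sets of libraries made with and without RTI cannot be told apart from RTI.

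Few single genes passed the test between the mG-cKO libraries with and without RTI. In limma, fitted to log2(FPKM + 1) over the 15 libraries with Benjamini-Hochberg adjustment over 16613 genes, 3 genes fell (0.0181% of the genes tested) and 0 rose (0%) at an adjusted p under 0.05. At an unadjusted p under 0.05, 403 genes were lower (2.43%) and 283 higher (1.7%). The median difference of all genes was 0.003 on the log2 scale. As a plain count, 869 genes (5.23%) were lower in all 3 RTI libraries than in any untreated one, and 771 (4.64%) were higher. These 2 shares are the background against which each gene group below is read, and a group whose libraries do not overlap in this sense is called separated.

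Car6 was the one protein-coding gene that fell. It encodes a carbonic anhydrase known mainly as a secreted enzyme, with a stress-inducible intracellular form described in mouse cells, and lies on chromosome 4 (mm10, 150187015 to 150201332, minus strand). Its level was 1.96, 1.89 and 2.04 FPKM in the mG-cKO libraries and 0.191, 0.750 and 0.389 FPKM in the mG-cKO RTI libraries. In Ctrl it was 0.093 FPKM in 1 library and listed at 0 in the other 2, and it was listed at 0 in all 6 mG-cKD libraries. Every RTI library thus lay below every untreated mG-cKO library and above every Ctrl library. The mean with RTI was 0.226 of that without, and the log2 difference was -1.05 ± 0.13 (SE, limma, adjusted p = 0.00611).

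The other genes that fell are noncoding. Gm20634, a processed transcript on chromosome 3 (96245554 to 96248509, plus strand), was at 2.37, 2.23 and 2.37 FPKM without RTI and at 0.074, 0.486 and 0.393 FPKM with it, a log2 difference of -1.35 ± 0.16 (SE, limma, adjusted p = 0.00611). Unlike Car6 it was also present in Ctrl, at 1.57 to 2.06 FPKM, so its RTI libraries lay below both. Gm38403, a lincRNA on chromosome 10 (118920381 to 118927143, minus strand), was at 1.55, 2.03 and 1.23 FPKM without RTI and at 0.233, 0.613 and 0.352 FPKM with it, a log2 difference of -0.89 ± 0.13 (SE, limma, adjusted p = 0.0436). In Ctrl it did not exceed 0.039 FPKM. With RTI the 3 called genes lay mostly under the limit of 0.5 FPKM, and they met it only through the untreated libraries. These calls were lost without the libraries outside the comparison. There Car6 and Gm38403 lay at or near 0 and scarcely varied, while Gm20634 was at 1.57 to 2.06 FPKM in Ctrl. A fit without those libraries also estimates each spread from fewer libraries, and which of these mattered was not tested. Fitted on the 6 libraries alone, limma gave adjusted p-values of 0.914 for Car6, 0.507 for Gm20634 and 0.967 for Gm38403, and 0 genes passed (536 at an unadjusted p under 0.05). Over the alternatives in which these 3 genes were tested, the adjusted p ranged from 0.00137 to 1 for Car6, from 0.00213 to 0.723 for Gm20634 and from 0.0161 to 1 for Gm38403. With a pseudocount of 0.1 in place of 1, 0 genes passed as well (629 unadjusted).

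Pycr1 and Pla2g5, both raised in mG-cKO cortex, had the next smallest p-values among protein-coding genes. Pycr1, the mitochondrial enzyme of the last step of proline synthesis, was at 2.49, 3.09 and 2.88 FPKM without RTI and at 1.02, 1.62 and 1.35 FPKM with it. The 3 Ctrl libraries held 1.300 to 1.501 FPKM, so the untreated mG-cKO libraries lay above them while the RTI libraries spread around them. The log2 difference was -0.72 ± 0.12 (SE, unadjusted p = 3.6e-05 in limma) and did not pass adjustment (adjusted p = 0.149, and 0.0654 to 1 over the alternatives).

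Pla2g5, a secreted phospholipase A2, went from 3.503, 4.004 and 4.359 FPKM to 1.498, 1.671 and 1.204 FPKM, with Ctrl at 0.434 to 1.298 FPKM. The groups with and without RTI were separated, with a log2 difference of -1.01 ± 0.18 (SE, limma, adjusted p = 0.172). The corresponding difference in mG-cKD, where untreated libraries started at 0.943 to 1.16 FPKM, was -0.42, and -0.29 without the library labelled mG-cKD RTI 1.

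C4b (chromosome 17, 34728380 to 34743882, minus strand) stayed far above Ctrl with RTI. It was at 21.015, 26.771 and 20.844 FPKM without RTI, at 14.8, 17.0 and 17.5 FPKM with it, and at 1.75 to 1.96 FPKM in Ctrl. The RTI libraries were all lower, yet the log2 difference of -0.45 ± 0.27 (SE) did not pass adjustment (limma, adjusted p = 0.958). This SE pools the spread of all 15 libraries. Among these, mG-cKD RTI 1 held C4b at 6.745 FPKM against 1.898 and 2.253 FPKM in its group. Fitted on the 6 libraries alone, limma gave an adjusted p of 0.967. Among the 9 libraries without RTI, with the replicate number as a block, the SE of the mG-cKO difference from Ctrl was 0.12. Against Ctrl the mG-cKO libraries were higher by 3.04 ± 0.27 and the mG-cKO RTI libraries by 2.59 ± 0.27 (SE, adjusted p = 1.77e-05 and 0.00014), values that share the Ctrl libraries. With a term for Xist above 1 FPKM the RTI difference of C4b was -0.13. The Stk19-ps1 pseudogene, annotated next to C4b, and Skiv2l-ps1, in the same stretch of chromosome 17, were also separated downward, at -0.50 and -0.60. C4a, a near-identical copy with which C4b may share reads, was at 1.05 to 2.05 FPKM without RTI and 1.18 to 1.85 FPKM with it.

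**Figure D1:**
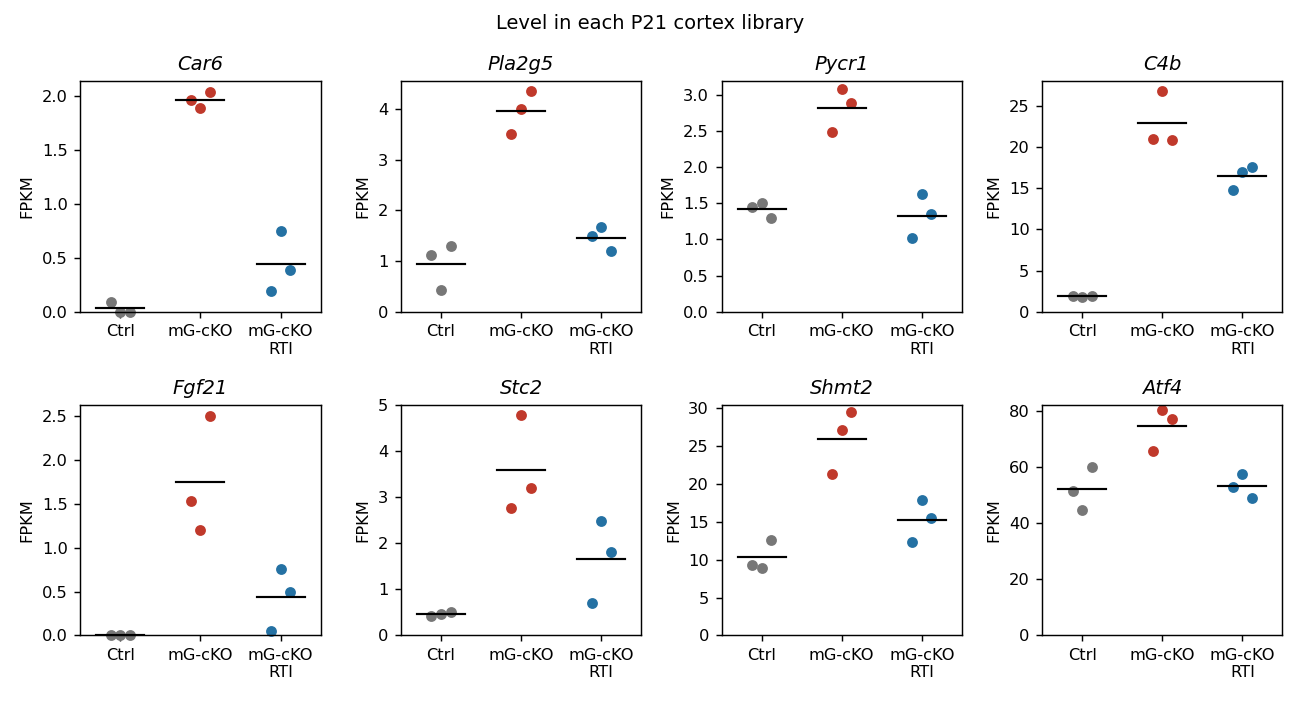
FPKM (linear axes from 0) of 8 genes in each P21 cortex library of Ctrl (grey), mG-cKO (red) and mG-cKO RTI (blue), with the mean of the 3 libraries as a bar. In every panel the 3 RTI points lie below the 3 untreated mG-cKO points, and for C4b they stay between 14.8 and 17.5 FPKM, far above Ctrl.

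The integrated stress response list leaned downward. Of its 35 measured members 12 were separated downward (34.3%, beside 5.23% of all genes) and 0 upward, 30 had a negative and 5 a positive RTI difference, and the median was -0.31 on the log2 scale. None passed the adjusted threshold. The list was put together with earlier results of these data known, so its direction is a description. Against Ctrl, 14 members were higher in untreated mG-cKO (limma, adjusted p under 0.05, where 1.67% of all genes were higher) and 1, Trib3, in mG-cKO RTI (where 1.52% were). Library by library, the median of the list stood 0.46, 0.76 and 0.52 above the Ctrl mean without RTI and 0.10, 0.41 and 0.31 above it with RTI (log2 scale). The RTI libraries thus lay between Ctrl and untreated mG-cKO, closest to the latter in mG-cKO RTI 2. Without mG-cKO RTI 2 the count separated downward was 21 (9% of all genes then). Without mG-cKO RTI 1 it was 14 (40%, beside 13.2% of all genes), with 4 upward (11.4%, beside 16.4%). Without mG-cKO RTI 3 it stayed at 12 (beside 8.07%).

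The secreted members and the transcription factor itself show the pattern. Fgf21, a stress-induced hormone, was listed at 0 in every Ctrl library, at 1.54, 1.21 and 2.51 FPKM in mG-cKO, and at 0.049, 0.759 and 0.497 FPKM in mG-cKO RTI (log2 difference -0.94 ± 0.18, SE, limma, adjusted p = 0.325). Stc2, the glycoprotein stanniocalcin 2, was at 2.77, 4.79 and 3.19 FPKM without RTI and 0.696, 2.48 and 1.80 FPKM with it (-0.82 ± 0.21). Both remained above the Ctrl libraries in every RTI library. Fgf21 averaged 0.435 FPKM with RTI, so it met the limit of 0.5 FPKM only through the untreated libraries. Atf4 went from 65.8, 80.3 and 77.1 FPKM to 52.96, 57.6 and 48.9 FPKM, within the 44.6 to 59.8 FPKM of Ctrl (-0.48 ± 0.14, adjusted p = 0.958).

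Among the metabolic targets, Shmt2, the mitochondrial serine hydroxymethyltransferase, was at 21.4, 27.2 and 29.4 FPKM without RTI and at 12.4, 17.8 and 15.4 FPKM with it, against 8.93 to 12.7 FPKM in Ctrl (-0.74 ± 0.17, SE, limma, adjusted p = 0.746). Aldh18a1, the enzyme that opens proline synthesis from glutamate, differed by -0.43, and Slc7a5, a large neutral amino acid transporter, by -0.63. The translation repressor Eif4ebp1 (-0.59) and the pseudokinase Trib3 (-0.49) were separated too, as were the tRNA synthetases Aars (-0.25), Wars (-0.22) and Gars (-0.18). Not all of the pathway followed. Phgdh and Psat1, which open serine synthesis, differed by -0.02 each, the cystine transporter Slc7a11 by 0.01, and Atf3, another stress transcription factor, by 0.35, all with overlapping groups.

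**Figure D2:**
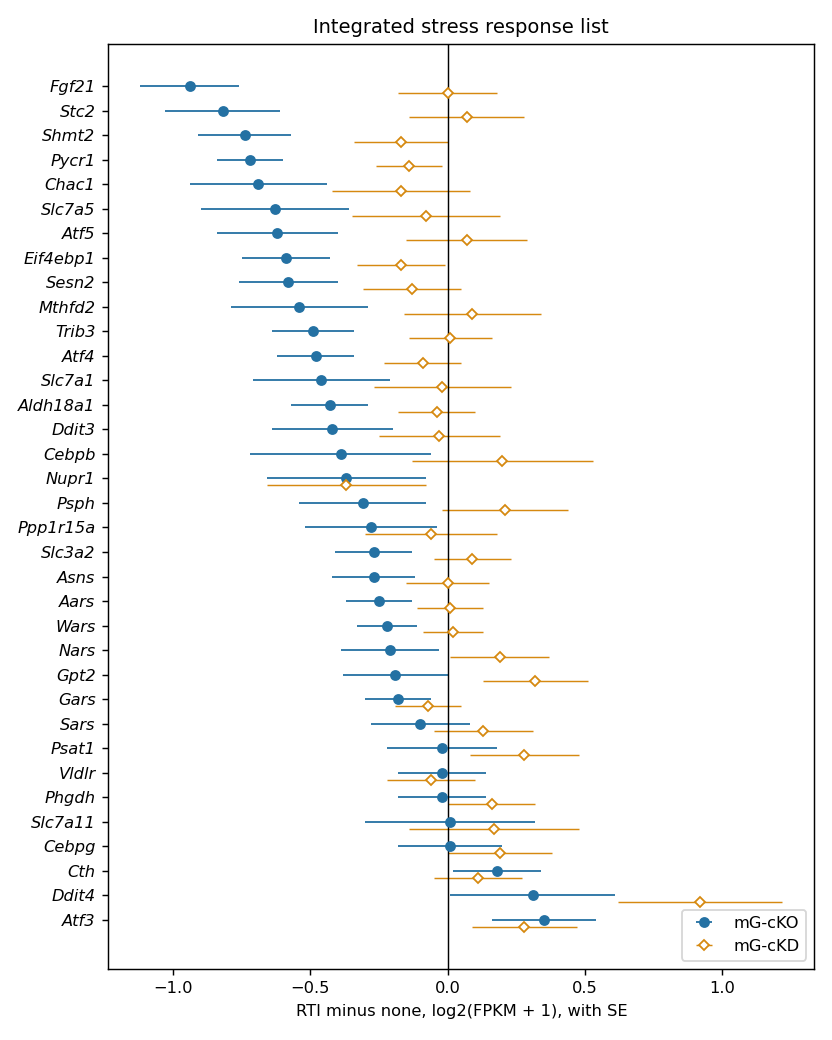
RTI minus none on the log2(FPKM + 1) scale for the 35 measured members of the integrated stress response list, in mG-cKO (filled circles) and mG-cKD (open diamonds), with the standard error of the fit. In mG-cKO 30 of the 35 values are negative, whereas the mG-cKD values scatter around 0.

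In mG-cKD the same list was near Ctrl before any RTI. Its library medians there were -0.07 to 0.02 around the Ctrl mean with and without RTI, and the median RTI difference was 0.01 (0.05 without the library labelled mG-cKD RTI 1). No member passed the test of the difference between the genotypes. The value for Fgf21 was -0.94 ± 0.26 and for Pycr1 -0.58 ± 0.17 (SE, limma, adjusted p = 1 for both).

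Atf4 binds, with a C/EBP partner, a composite element whose core is often written TGATGCAA. Because the list is defined by such targets, the 250 bases upstream of each start in RefSeq's promoter table (GRCm38.p6) were searched for these letters on both strands, a search added after the values had been seen. Of the 35 members 30 have an entry, some with more than 1 start, for 34 promoters in all. The motif lies in 8 of the 34 (23.5%), 1 each of Aars, Atf3, Chac1, Fgf21, Nupr1, Pycr1, Slc7a11 and Vldlr, against 260 of 32851 promoters in the table (0.791%). The upstream sequences of 3 holders with separated groups and of Vldlr, the lipoprotein receptor that holds the motif while its groups overlapped (-0.02), are shown so that the element can be seen in its setting. The motif, or its reverse complement TTGCATCA, is in capitals.
Pycr1, chr11:120643749-120643998, minus strand: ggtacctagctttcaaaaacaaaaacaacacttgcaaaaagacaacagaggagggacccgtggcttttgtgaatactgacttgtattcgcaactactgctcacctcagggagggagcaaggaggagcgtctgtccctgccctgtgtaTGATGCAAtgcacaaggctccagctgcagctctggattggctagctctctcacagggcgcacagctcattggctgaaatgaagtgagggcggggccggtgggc
Fgf21, chr7:45615491-45615740, minus strand: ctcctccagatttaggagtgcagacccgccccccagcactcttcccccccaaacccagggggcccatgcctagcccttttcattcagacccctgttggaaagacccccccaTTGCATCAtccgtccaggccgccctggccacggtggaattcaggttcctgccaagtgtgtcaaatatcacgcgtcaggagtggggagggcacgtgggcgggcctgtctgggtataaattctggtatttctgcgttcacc
Aars, chr8:111033592-111033841, plus strand: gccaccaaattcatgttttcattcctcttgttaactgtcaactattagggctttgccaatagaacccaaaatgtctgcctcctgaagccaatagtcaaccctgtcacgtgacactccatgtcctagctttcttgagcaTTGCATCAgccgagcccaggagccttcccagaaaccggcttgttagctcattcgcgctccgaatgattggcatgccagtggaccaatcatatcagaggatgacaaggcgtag
Vldlr, chr19:27216770-27217019, plus strand: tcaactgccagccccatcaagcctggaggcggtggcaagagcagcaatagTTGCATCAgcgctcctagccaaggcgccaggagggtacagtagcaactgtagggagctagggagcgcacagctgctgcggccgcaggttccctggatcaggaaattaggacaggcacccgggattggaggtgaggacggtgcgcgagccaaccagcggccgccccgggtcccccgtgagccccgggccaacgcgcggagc

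The motif starts 103 bases upstream of the Pycr1 start, 139 bases upstream of Fgf21, 112 bases upstream of Aars and 200 bases upstream of Vldlr. Holding it did not sort the list by RTI difference. Of the 8 holders 3 were separated downward and 5 overlapped, and 6 of the 9 separated members with a promoter entry lack these letters in the window.

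The neighbouring unfolded protein response list showed a smaller difference. Of 20 members 5 were separated downward and 0 upward, 17 were negative, and the median was -0.18, or -0.06 without mG-cKO 2. Without mG-cKO 3 the count was 12 (8.32% of all genes then). The separated members were Herpud1 (-0.49), a membrane protein of endoplasmic reticulum degradation, the chaperone Hyou1 (-0.43), Sel1l (-0.29), the transcription factor Xbp1 (-0.25) and Calr (-0.16). The central chaperone Hspa5 overlapped, at 106, 141 and 77.0 FPKM without RTI and 86.9, 111 and 103 FPKM with it. Within proline metabolism, 4 of 15 members were separated downward and 1 upward, the pair of synthesis enzymes named above standing apart from the degrading enzyme Prodh (-0.19), whose groups overlapped.

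**Figure D3:**
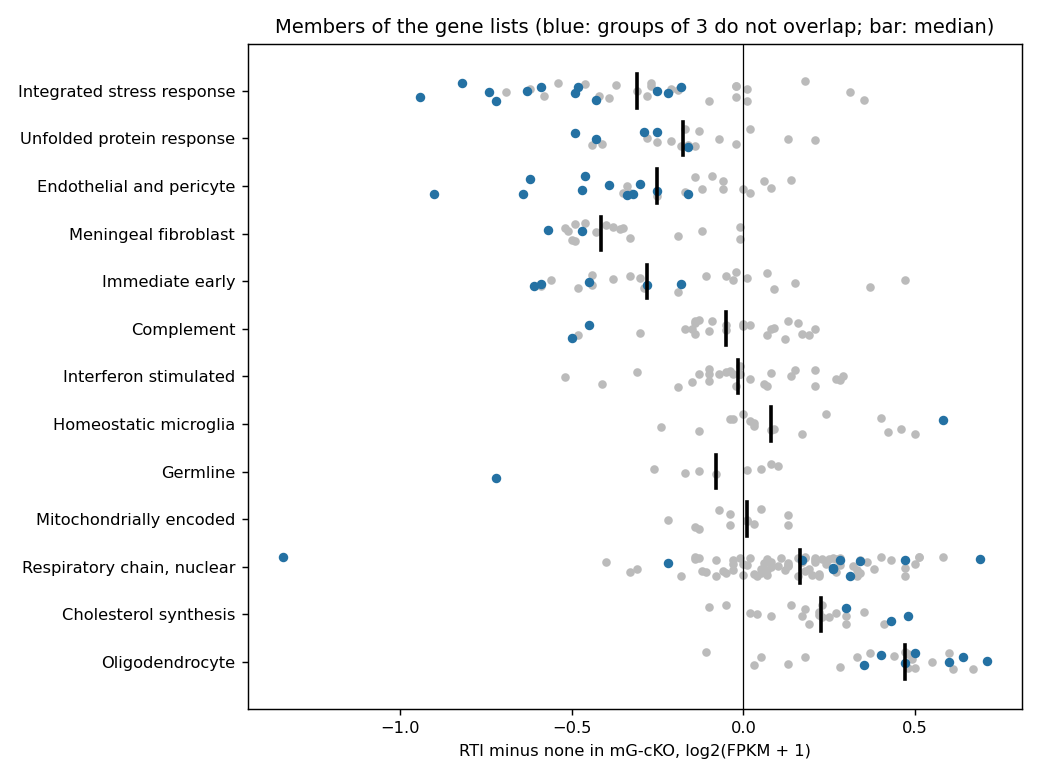
RTI minus none in mG-cKO on the log2(FPKM + 1) scale for each measured member of 13 gene lists, members with separated groups in blue and the list median as a bar. The stress response median lies at -0.31 and the oligodendrocyte median at 0.47, while the interferon and mitochondrially encoded lists centre near 0.

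Genes chosen in other libraries leaned back toward Ctrl as well. At P45, where a separate table holds 3 Ctrl and 3 mG-cKO cortex libraries, limma called 137 genes higher and 91 lower in mG-cKO (fitted over the 20 libraries of that table, adjusted p under 0.05 of 19733 genes). Of the 135 higher genes measured at P21, 33 (24.4%, beside 5.23% of all genes) were separated downward with RTI and 1, the zinc finger gene Zfp984, upward. Their median RTI difference was -0.23, and 101 were negative. Of the 87 lower genes, 20 (23%, beside 4.64%) were separated upward and 2, Ntn5 and Afap1l1, downward, with a median of 0.20 and 72 positive. Without mG-cKO RTI 3 the count upward was 32 (8.12% of all genes then), and without mG-cKO RTI 1 it was 28 with 11 downward (16.4% and 13.2% of all genes then) and a median of 0.08. In mG-cKD the medians were 0.01 and 0.03, or 0.01 and 0.10 without the library labelled mG-cKD RTI 1. None of these genes passed the adjusted threshold for RTI, and the P45 libraries carry no RTI group.

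Of the lower set 22 genes are on the oligodendrocyte list, 7 of them separated upward with a median of 0.47. The other 65 had 13 separated upward (20%), 2 downward and a median of 0.15. The stress response list accounts for part of the upper set. It holds 9 of the 135 genes, 6 of them separated. Of the other 126, 27 were separated downward and 1 upward, with a median of -0.22. They include P2rx7, the ATP-gated channel of microglia and other glia, at 5.24, 7.23 and 4.77 FPKM without RTI and 2.84, 3.06 and 3.69 FPKM with it (-0.67 ± 0.14, SE, limma, adjusted p = 0.388). Cox6a2, the muscle-type subunit of cytochrome c oxidase, was at 46.2, 86.3 and 123 FPKM and then at 21.4, 40.0 and 33.7 FPKM (-1.34 ± 0.44). Bglap3, of the osteocalcin family, was at 21.3, 21.4 and 26.2 FPKM and then at 2.858, 17.776 and 14.953 FPKM, lowest by far in mG-cKO RTI 1.

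The genes with the largest P45 differences were not all lower with RTI. Tcfl5, a transcription factor of spermatogenesis, was at 13.8, 17.0 and 15.5 FPKM without RTI and 14.7, 13.4 and 15.4 FPKM with it, against a Ctrl mean of 0.362 FPKM. Mnd1, a meiotic recombination factor, overlapped as well (-0.13 ± 0.43). Across the germline list 1 of 9 members was separated, Taf7l, a testis-enriched subunit of the transcription factor TFIID, at 1.80, 2.59 and 1.31 FPKM without RTI and 0.837, 0.490 and 0.907 FPKM with it (-0.72 ± 0.15, adjusted p = 0.430). Prm1, Dazl, Sycp3 and Rad21l had differences between 0.01 and 0.10.

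**Figure D4:**
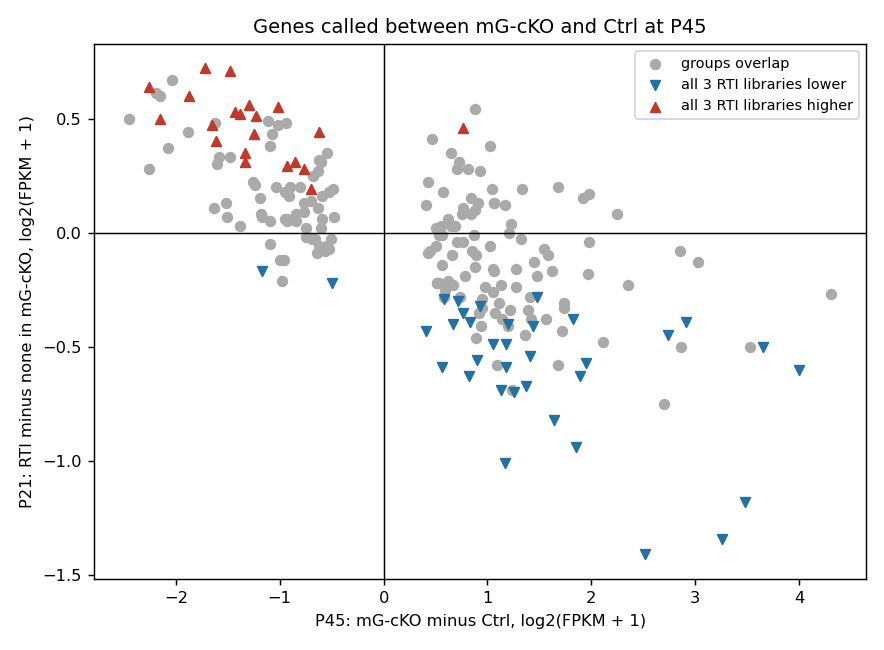
RTI minus none in mG-cKO at P21 (vertical) against mG-cKO minus Ctrl at P45 (horizontal), both on the log2(FPKM + 1) scale, for the genes called at P45 and measured at P21. Separated genes lie below 0 on the right (33 lower, 1 higher) and above 0 on the left (20 higher, 2 lower).

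Clustered protocadherins, adhesion molecules of neuronal identity made from alternative first exons, gave 5 members of 56 separated downward and 3 upward, and 16 downward without mG-cKO RTI 2 (9% of all genes then). Pcdhga8 was at 16.3, 53.4 and 36.0 FPKM without RTI and 6.83, 14.6 and 14.1 FPKM with it, against 1.63 FPKM in Ctrl (-1.41 ± 0.34, SE, limma, adjusted p = 0.746, and 0.0475 to 1 over the alternatives, lowest without mG-cKO 1). Pcdhga4 was at 6.510, 6.997 and 6.504 FPKM and then at 2.60, 3.43 and 2.82 FPKM, around its Ctrl mean of 2.65 FPKM (-0.96 ± 0.19). It was lower with RTI in mG-cKD too, by -0.64, or -0.74 without the library labelled mG-cKD RTI 1. Pcdhgb1 went the other way, from 5.64, 4.11 and 5.78 FPKM to 8.32, 7.23 and 26.3 FPKM. These genes share exons and cannot be counted independently.

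Oligodendrocyte transcripts were severely reduced in mG-cKO and remained so with RTI. Of 25 markers 23 were lower than Ctrl in untreated mG-cKO (limma, beside 0.752% of all genes) with a median of -2.47, and 22 in mG-cKO RTI (beside 0.939%) with a median of -2.11. Set against each other, the RTI libraries had 24 of 25 positive differences, 7 separated upward (28%, beside 4.64%) and 0 downward, and a median of 0.47. In mG-cKD the median RTI difference was -0.03, or 0.20 without the library labelled mG-cKD RTI 1. Tspan2, a tetraspanin of the oligodendrocyte membrane, was at 6.996, 5.084 and 4.136 FPKM without RTI and 8.81, 8.81 and 10.3 FPKM with it, against 26.4 to 41.1 FPKM in Ctrl (0.71 ± 0.30, SE, limma, adjusted p = 0.958). Tmem88b (0.60), Cldn11 (0.50), Ugt8a (0.47), Myrf (0.40) and Cnp (0.35) were also separated upward.

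A single library weighs on that difference. Relative to the Ctrl mean the list median was -1.70 in mG-cKO RTI 1 but -2.29 and -2.49 in mG-cKO RTI 2 and 3, next to -2.35, -2.54 and -2.41 without RTI. Mal, Mobp, Ermn, Opalin, Trf, Aspa and Hapln2 were highest by far in mG-cKO RTI 1, with the other RTI libraries in or near the untreated range. Without that library the median was 0.27, with 9 members separated upward and 3 downward (16.4% and 13.2% of all genes when it is left out), and without mG-cKO RTI 3 there were 13 upward (8.12%). Bcas1, a marker of newly myelinating oligodendrocytes, showed another order, at 18.7, 18.1 and 20.8 FPKM without RTI and 23.7, 29.2 and 48.7 FPKM with it, against 55.1 FPKM in Ctrl (0.72 ± 0.20, adjusted p = 0.958). Oligodendrocyte precursor markers had a median of -0.01, with 1 of 15 separated in each direction. Without mG-cKO RTI 1 there were 7 separated upward (46.7%, beside 16.4% of all genes then) and 1 downward.

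**Figure D5:**
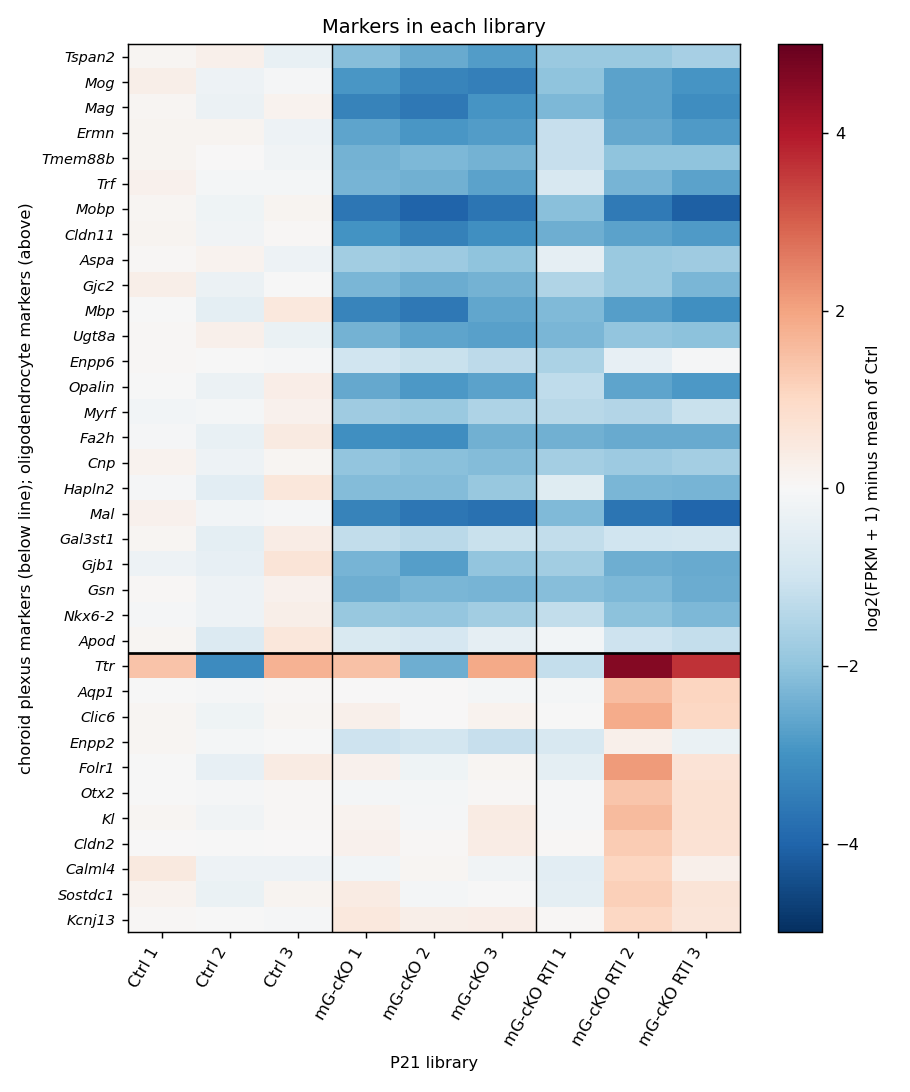
Log2(FPKM + 1) minus the Ctrl mean for oligodendrocyte markers (above the line, 1 measured marker not shown) and choroid plexus markers (below it) in the 9 Ctrl, mG-cKO and mG-cKO RTI libraries. Most oligodendrocyte transcripts are low in all 6 mG-cKO libraries and many are least so in mG-cKO RTI 1, while choroid plexus transcripts are high in mG-cKO RTI 2 and 3.

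Cholesterol synthesis, on which myelination draws, leaned upward, with 20 of 22 members positive, 3 separated (Insig1 at 0.48, Hmgcs1 at 0.43 and Sqle at 0.30) and a median of 0.23, or 0.13 without mG-cKO RTI 1. Without mG-cKO 3 there were 8 separated upward (36.4%, beside 8.23% of all genes then). In mG-cKD the median of this list was 0.04, or 0.24 without the library labelled mG-cKD RTI 1. The nuclear genes of the respiratory chain had 65 of 84 members positive, 8 separated upward, 2 downward and a median of 0.16, which was 0.02 without mG-cKO RTI 1. Upward there were 24 without mG-cKO RTI 3 (28.6%, beside 8.12%) and 18 without mG-cKO 2 (21.4%, beside 8.82%). The 13 mitochondrially encoded genes had a median of 0.01 and none separated, but without mG-cKO RTI 1 there were 10 separated downward (13.2% of all genes then).

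Vascular transcripts leaned lower with RTI, though none passed the adjusted threshold. Of 26 endothelial and pericyte markers 11 were separated downward (42.3%, beside 5.23%) and 0 upward, with a median of -0.25 that ranged from -0.27 to -0.21 when single libraries were left out. The largest differences were in contractile genes of mural cells. Acta2, smooth muscle actin, was at 4.29, 6.96 and 5.96 FPKM without RTI, 1.99, 2.60 and 3.17 FPKM with it, and 4.15 FPKM on average in Ctrl (-0.90 ± 0.24, SE, limma, adjusted p = 0.912). Anpep (-0.64), Myl9 (-0.62), Tagln (-0.47), Cspg4 (-0.46), Vtn (-0.32) and Rgs5 (-0.30) of mural cells and Cdh5 (-0.39), Tek (-0.34), Flt1 (-0.25) and Pecam1 (-0.16) of endothelium followed. Cldn5, Esam and Slco1a4 overlapped with differences between -0.06 and 0.08. The summed level of the list was 251 to 273 FPKM without RTI, 212 to 233 FPKM with it and 215 to 267 FPKM in Ctrl. In mG-cKD the median was -0.11, or -0.06 without the library labelled mG-cKD RTI 1.

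Markers of adjoining tissue differed beside these. All 18 meningeal fibroblast markers were negative, with a median of -0.41 (-0.19 without mG-cKO RTI 1), 2 separated and summed levels of 674 to 1270 FPKM without RTI and 603 to 705 FPKM with it. Downward there were 11 of them without mG-cKO 2 (61.1%, beside 10.1% of all genes then) and 7 without mG-cKO RTI 2 (38.9%, beside 9%). All 11 choroid plexus markers were positive, with a median of 0.74 (0.17 without mG-cKO RTI 2) and summed levels of 44.3 to 114 FPKM without RTI and 51.5, 621 and 325 FPKM with it. Striatal markers had 3 of 18 members separated upward and a median of 0.21, which was 0.01 without mG-cKO RTI 2. Without mG-cKO RTI 1 it was 0.54, with 14 separated upward (77.8%, beside 16.4% of all genes then). Erythroid transcripts, mostly globins, were positive in 7 of 7 members with 0 separated and a median of 0.91, from 0.29 without mG-cKO 1 to 1.96 without mG-cKO 2. Relative to the Ctrl mean the erythroid median was -1.50, 2.30 and -0.59 in the mG-cKO libraries and 1.25, 0.20 and 1.65 with RTI, and by number -1.16, 2.25 and -0.51 in Ctrl and -1.51, 2.32 and -0.71 in mG-cKD. The RTI difference of the list in mG-cKD was 2.27. How far the amount of blood, meninges, choroid plexus or striatum in a sample bears on other genes was not tested. Htr2c, a serotonin receptor that choroid plexus also expresses, was at 7.97, 3.69 and 7.20 FPKM without RTI and 9.02, 14.7 and 13.6 FPKM with it, highest in the libraries high in Ttr.

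Immune transcripts held no common direction. The interferon-stimulated list, which held a median of 0.67 over Ctrl in untreated mG-cKO and 0.58 with RTI, had 0 of 28 members separated and a median RTI difference of -0.02. Without mG-cKO 2 there were 6 separated upward (8.82% of all genes then). In mG-cKD the median RTI difference was 0.31, or 0.43 without the library labelled mG-cKD RTI 1. In the complement list 2 of 26 members were separated, C4b and Cfp, the alternative pathway regulator properdin, at 5.68, 6.14 and 7.57 FPKM without RTI and 4.61, 4.18 and 4.01 FPKM with it (-0.50 ± 0.15). The microglial subunits C1qa, C1qb and C1qc differed by 0.09, 0.00 and -0.14. Among class II antigen presentation genes Cd74, the invariant chain, was lower (-0.40) and H2-Eb1 higher (0.56), both separated. The median of the 7 class II members was 0.30, and -0.01 to 0.32 as single libraries were left out. Above Ctrl stood 2 of them in mG-cKO, Cd74 and H2-Eb1, and 4 in mG-cKO RTI, with H2-Aa and H2-Ab1 added (limma, adjusted p under 0.05). Class I genes leaned downward, with 9 of 12 negative, 1 separated, the peptide trimming enzyme Erap1 (-0.15), and a median of -0.11. Without mG-cKO RTI 1 there were 6 separated downward (50%, beside 13.2% of all genes then).

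The genes that sense or clear nucleic acids, and those that handle nucleoside drugs, held no common direction. Among 18 nucleic acid sensing genes 2 were separated in each direction, the DNA sensor Aim2 (0.45) and the kinase Tbk1 (0.12) upward and the adaptors Ticam1 (-0.40) and Myd88 (-0.27) downward, with a median of 0.01. Among 18 genes that clear RNA-DNA hybrids and other nucleic acids 2 were separated downward, Samhd1, a dNTP hydrolase that limits reverse transcription (-0.23), and Adar, an RNA editing enzyme (-0.22), and Rnaset2a upward (0.52). Of 27 nucleoside salvage genes 1 was separated upward, the nucleoside transporter Slc29a1 (0.45), at 7.99, 6.59 and 8.92 FPKM without RTI and 14.2, 10.1 and 9.22 FPKM with it, and 1 downward, Samhd1 again. Mitochondrial DNA maintenance genes had 1 of 22 separated, Polrmt (-0.21), and retroelement silencing genes 1 of 24 in each direction, Ehmt2 (-0.06) downward and Mphosph8 (0.09) upward.

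P2ry12, the ADP receptor of resting microglia, had the smallest p-value of any higher protein-coding gene. It was at 8.16, 8.20 and 9.42 FPKM without RTI and at 13.5, 11.6 and 14.8 FPKM with it, around the 12.2 FPKM mean of Ctrl (0.58 ± 0.13, SE, limma, adjusted p = 0.692). The homeostatic microglia list had 13 of 17 members positive and a median of 0.08. Without mG-cKO RTI 2 there were 6 separated upward (35.3%, beside 7.8% of all genes then) and 0 downward. Aif1 (0.50), Trem2 (0.46) and Gpr34 (0.40) overlapped, and Tmem119 (0.02), Cx3cr1 (0.09) and Csf1r (-0.03) overlapped. Gfap, the astrocyte filament protein, was higher than Ctrl in mG-cKO (1.24 ± 0.21, adjusted p = 0.00304) and overlapped between the RTI groups (-0.28 ± 0.21).

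Activity-dependent genes had medians of opposite sign in the genotypes. Of 25 immediate early genes 5 were separated downward in mG-cKO (11 without mG-cKO 1, beside 9.82% of all genes then), with a median of -0.28. In mG-cKD the median was 0.43, or 0.45 without the library labelled mG-cKD RTI 1, and 10 were separated upward (beside 3.95% of all genes there). Bdnf, a neurotrophin, was at 8.08, 9.82 and 6.45 FPKM without RTI and 4.61, 5.37 and 5.04 FPKM with it in mG-cKO (-0.59 ± 0.15, SE, limma, adjusted p = 0.856). Ptgs2 (-0.61), Egr3 (-0.45), Nr4a1 (-0.28) and Dusp6 (-0.18) were the other separated members. The difference between genotypes was tested gene by gene and 0 genes passed.

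Neuronal and synaptic lists leaned slightly downward. Of 20 excitatory neuron markers 4 were separated downward and 1 upward (median -0.15), and of 24 postsynaptic genes 3 downward and 1 upward (median -0.05). In mG-cKD these medians were -0.13 and -0.08, or -0.11 and -0.09 without the library labelled mG-cKD RTI 1. Without mG-cKO RTI 1 the excitatory markers had 8 separated downward and 4 upward, and the postsynaptic genes 4 downward and 6 upward. Of all genes 13.2% were then separated downward and 16.4% upward. Shank1, a scaffold of the postsynaptic density, was at 69.3, 71.5 and 106 FPKM without RTI and 43.4, 55.9 and 53.2 FPKM with it (-0.66 ± 0.20, SE, limma, adjusted p = 0.958). Camk2a (-0.36), Nrgn (-0.46) and Lamp5 (-0.44) were among the excitatory markers separated downward. Among 22 inhibitory neuron markers the neuropeptide genes went apart, Crh at 7.04, 8.08 and 9.56 FPKM without RTI and 4.26, 4.69 and 4.79 FPKM with it, and Tac1, which striatum also expresses, at 17.3, 13.2 and 19.9 FPKM and then 28.1, 24.9 and 26.1 FPKM. Crh was lower with RTI in mG-cKD too, by -0.72, or -0.68 without the library labelled mG-cKD RTI 1.

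The remaining genes with the smallest p-values, none past the threshold, lay on both sides. Olfr464, an olfactory receptor gene, was at 0.793, 1.01 and 1.02 FPKM without RTI and 0.088, 0.120 and 0.166 FPKM with it (-0.79 ± 0.14, SE, limma, adjusted p = 0.221), and its difference in mG-cKD was -0.64. It met the limit of 0.5 FPKM only through the untreated libraries. Tspan11 (-0.73), a tetraspanin, Ttll3 (-0.60), a tubulin glycylase, and Sgsm1 (-0.58) were also lower. Their differences in mG-cKD were -0.49, 0.06 and -0.25, or -0.41, -0.06 and -0.22 without the library labelled mG-cKD RTI 1. Sgsm1 was at 30.0, 29.5 and 30.4 FPKM and then at 16.1, 23.2 and 20.5 FPKM. On the higher side stood Crym, a thyroid hormone-binding protein, at 42.7, 37.1 and 32.1 FPKM without RTI and 79.6, 62.4 and 55.3 FPKM with it (0.80 ± 0.22, adjusted p = 0.958). Its difference in mG-cKD was 0.41, or 0.51 without the library labelled mG-cKD RTI 1. Lyrm7 (0.73), a complex III assembly factor, Mctp1 (0.61), Strip2 (0.60), Chia1 (0.51), Car14 (0.50), Mcm8 (0.49), Rtkn2 (0.47) and Thumpd3 (0.45) were higher in all 3 RTI libraries as well.

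RTI on the mG-cKD background gave 0 genes past the adjusted threshold (0%, 350 at an unadjusted p under 0.05), with 656 genes separated upward (3.95%) and 546 downward (3.29%). The test of whether the RTI difference itself depended on genotype also gave 0 genes (0%, 255 unadjusted), the smallest adjusted p being 0.511 for Car6 and Gm20634. Both counts stayed at 0 without the library labelled mG-cKD RTI 1. Against Ctrl, 277 genes were higher and 125 lower in mG-cKO, and 253 higher and 156 lower in mG-cKO RTI. With the libraries scaled to a common median these became 215 and 156, and 164 and 203. With the replicate number as a block among the 9 libraries without RTI, a fit added after the values had been seen, 407 genes were higher (2.45%) and 232 lower (1.4%) in mG-cKO, among them 18 of the stress response list higher and 24 of the oligodendrocyte list lower.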

How the data were processed

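The deposited P21 and age tables hold FPKM per gene, which the authors computed from RNA-seq of TRIzol-extracted cortex RNA (NEB Next Ultra libraries, per the labels). The build mm10 and the tools featureCounts 2.0.4, STAR 2.5.3a and Trim Galore 0.6.5 come from the notes the submitters gave on processing. Strand and the FPKM formula are not given in the sources used here. Low values fell on no common whole-read step, so depth is unknown and no counting interval is given. Summed FPKM ranged from 348306 to 415152 in the 6 libraries. Gene positions and types came from GENCODE M21, which holds 99.5% of the P21 identifiers.

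The test was limma (3.58.1, under R 4.3.3) on log2(FPKM + 1). It used all 15 P21 libraries, a separate mean for each group, trended and robust variances, and Benjamini-Hochberg adjustment over the 16613 genes. Differences on this scale understate changes of low genes. Alternatives changed the pseudocount, the filter on low values, the scaling, the libraries in the fit, the variance model, a replicate block and, added after the data were seen, a term for Xist and a replicate block among the 9 libraries without RTI.

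Named genes were C4b, Pycr1 and Pla2g5, up to 12 protein-coding genes per direction (called genes first, then the smallest p), called members of each list or its 2 smallest p, and the 5 largest P45 differences per direction. Called noncoding genes and other list members are named as well, chosen after their values were seen. The members and the 49 gene lists were chosen with earlier results of these data known. Groups share replicate numbers in the labels, which state no pairing. Deviations from the group means pair mG-cKO with mG-cKD by number (0.52, 0.33 and 0.69, beside at most 0.16 between different numbers). For mG-cKO with Ctrl only number 3 (0.70) exceeded the highest value between different numbers (0.36). No group paired with RTI libraries at all 3 numbers. The values were 0.34, 0.21 and -0.22 for Ctrl with mG-cKO RTI and 0.12, 0.26 and 0.02 for mG-cKD with mG-cKD RTI.
Some results are not reported here because their items are withheld.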

Additional observations from a re-analysis of the deposited data

How the results depend on the processing

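The count of 3 genes in the RTI comparison became 0 with a pseudocount of 0.1 and with only the 6 libraries in the fit (629 and 536 genes at an unadjusted p under 0.05). Raising the filter to 2 FPKM removed all 3 called genes before the test, so that setting cannot show whether their calls hold. Of the 12353 genes it left, 0 passed (458 unadjusted). The count became 7 with no filter and 2 with a term for Xist above 1 FPKM (chosen after seeing the data, keeping Car6 and Gm20634). With that term 1542 genes lay at an unadjusted p under 0.05 in limma, against 686 in the main fit. The count of called genes ran from 1 (without mG-cKO RTI 3) to 4 as single libraries were left out. Of those 6 fits, Gm20634 was called in 6, Car6 in 5 and Gm38403 in 2. The replicate numbers do not pair the mG-cKO with the mG-cKO RTI libraries, whose same-numbered members deviated with correlations of -0.042, -0.315 and -0.185. With the replicate number as a block 4 genes passed over all P21 libraries and 0 over the 6 (490 unadjusted). The test of the difference between genotypes gave 0 or 1 genes as single libraries were left out, Car6 without mG-cKO RTI 2 and Baiap2l1 without mG-cKO 2. With the number as a block among the 9 libraries without RTI, 639 genes differed between mG-cKO and Ctrl. With a mean of at least 2 FPKM 255 genes differed between mG-cKO and Ctrl and 261 between mG-cKO RTI and Ctrl. The latter count ran from 190 (without mG-cKO RTI 2) to 566 (without mG-cKO RTI 1), with 201 without mG-cKO RTI 3. The cause of these shifts was not tested.

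The median of the P45-higher genes stayed between -0.31 and -0.15 and that of the P45-lower genes between 0.08 and 0.32 under the alternatives run, both nearest 0 without mG-cKO RTI 1. The stress response list kept a median between -0.40 and -0.22. With 3 libraries a group and unknown depth, the median standard error was 0.18 on the log2 scale.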

Other observations

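Other gene groups held few separated members. Of 82 cytosolic ribosomal protein genes 1 was separated upward and 0 downward (median 0.03), with 18 downward without mG-cKO RTI 1 (22%, beside 13.2% of all genes then) and 9 without mG-cKO 1 (11%, beside 9.82%). Of 15 heat shock genes 1 was separated upward, the co-chaperone Dnaja1 (0.26). The Nrf2 oxidative stress list had 2 of 21 separated upward, Nqo1 (0.33) and Me1 (0.18), and 0 downward. Of 141 zinc finger genes with high Zfp numbers, 8 were separated upward and 4 downward, with a median of 0.04. Cx3cl1, the neuronal chemokine whose receptor sits on microglia, was at 278, 308 and 424 FPKM without RTI and 177, 261 and 235 FPKM with it (-0.58 ± 0.27, SE, limma, adjusted p = 0.958). Its difference in mG-cKD was -0.52, or -0.22 without the library labelled mG-cKD RTI 1.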
